A study of Mus musculus with 20 samples.

Results

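Among promoters of the mouse genome that are rich in CG sites, 57 had almost no reads in sperm DNA captured for methylation, whatever the strain or the prenatal treatment. They were selected on the authors' group means. A promoter belonged to them when its region held 46 to 100 CG sites and each of the 4 group means was at most 1 normalized read. The symbol could not begin with Mir, Hox, Zfp, Rpl, Rps or Hist, the gene was not recorded as imprinted, and the region lay on chromosomes 1 to 19. The table held 22480 promoters, of which 20178 passed the filters on symbol, imprinting and chromosome, and 8617 of these had 46 to 100 CG sites. The 57 promoters are thus 0.661% of the CG-rich promoters, and the other 8560 serve as their comparison.

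Sperm DNA of 20 F1 males came from 4 groups of 5 males: control and DEHP males of strain C57BL/6J, and control and DEHP males of strain FVB/N. DEHP, a phthalate used to soften plastics, was given by mouth in corn oil to pregnant females on gestation days 9 to 19 (300 mg/kg/day), while control females received corn oil alone. Sperm diffused out of the vas deferens and epididymis of their sons at 8 weeks of age, and fragmented DNA was enriched with a methyl-CpG binding domain before paired sequencing. DNAs of DEHP and of control males were submitted separately, both strains together each time, so an effect of treatment and one of submission cannot be told apart. The depth of each library is unknown here, since group means and SDs were the values used. By the authors' methods, DEHP libraries had more read-pairs on average, and slightly longer reads, than control libraries. The group means summed over all promoters to 226268 in C57BL/6J control and 153283 in C57BL/6J DEHP. They summed to 141092 in FVB/N control and 150346 in FVB/N DEHP.

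Most CG sites of the mouse genome carry a methyl group on their cytosine, and methylated cytosine is lost over evolution by mutation. CpG islands are the stretches where CG sites have stayed dense, most of them lie over gene starts, and in sperm most of them are free of methylation. Male germ cells acquire much of their methylation in the later part of gestation. The binding domain retains fragments with several methylated CG sites, so a CG-rich region that is methylated should return many reads, while a methylated region with few CG sites may return few.

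The last 300 bases of 5 of these regions, from 100 bases before to 200 bases after the gene start, are printed below from GRCm38.p6 (mm10) in the direction of transcription. Capitals mark the CG sites, whose methylation lets a fragment be captured. Xpnpep3, Nbea and Leo1 are among the 8 promoters with the fewest reads, Dis3l is a gene with high expression in spermatocytes, and Boll is the one gene of the 57 marked for spermatogenesis.
Xpnpep3: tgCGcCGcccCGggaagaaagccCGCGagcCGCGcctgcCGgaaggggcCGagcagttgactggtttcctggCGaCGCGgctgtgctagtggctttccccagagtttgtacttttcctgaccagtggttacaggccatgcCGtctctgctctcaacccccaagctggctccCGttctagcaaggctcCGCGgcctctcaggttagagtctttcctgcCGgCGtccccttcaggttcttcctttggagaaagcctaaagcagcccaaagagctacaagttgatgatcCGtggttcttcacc
Nbea: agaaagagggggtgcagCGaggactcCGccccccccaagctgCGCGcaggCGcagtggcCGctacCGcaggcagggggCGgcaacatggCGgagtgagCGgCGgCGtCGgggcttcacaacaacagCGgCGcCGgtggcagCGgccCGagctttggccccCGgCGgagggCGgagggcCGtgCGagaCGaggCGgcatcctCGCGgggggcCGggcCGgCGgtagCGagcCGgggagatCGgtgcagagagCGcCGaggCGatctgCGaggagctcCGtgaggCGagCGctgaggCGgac
Leo1: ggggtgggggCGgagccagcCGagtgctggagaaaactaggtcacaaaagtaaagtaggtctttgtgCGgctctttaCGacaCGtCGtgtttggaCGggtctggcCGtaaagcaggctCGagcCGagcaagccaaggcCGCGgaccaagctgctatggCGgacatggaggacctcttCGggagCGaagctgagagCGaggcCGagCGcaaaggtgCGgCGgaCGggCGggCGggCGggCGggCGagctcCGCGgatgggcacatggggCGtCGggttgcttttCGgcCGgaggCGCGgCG
Dis3l: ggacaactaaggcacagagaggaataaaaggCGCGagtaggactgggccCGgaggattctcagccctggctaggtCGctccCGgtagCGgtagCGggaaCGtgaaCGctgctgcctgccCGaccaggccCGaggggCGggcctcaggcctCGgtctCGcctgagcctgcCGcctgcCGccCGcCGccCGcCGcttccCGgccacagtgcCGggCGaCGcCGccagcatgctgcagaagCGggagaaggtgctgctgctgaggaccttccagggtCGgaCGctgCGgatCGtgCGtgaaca
Boll: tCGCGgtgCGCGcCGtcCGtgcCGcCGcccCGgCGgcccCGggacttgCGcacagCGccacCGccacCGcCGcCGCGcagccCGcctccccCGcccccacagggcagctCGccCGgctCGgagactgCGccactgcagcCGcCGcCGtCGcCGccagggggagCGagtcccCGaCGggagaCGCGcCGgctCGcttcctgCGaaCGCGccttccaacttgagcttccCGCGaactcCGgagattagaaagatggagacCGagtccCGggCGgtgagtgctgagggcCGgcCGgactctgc
The Xpnpep3 stretch (chr15:81400088-81400387, plus strand) held 19 CG sites and the Leo1 stretch (chr9:75441424-75441723, plus strand) held 35. The Nbea stretch (chr3:56183502-56183801, minus strand) held 41, the Dis3l stretch (chr9:64341058-64341357, minus strand) 31 and the Boll stretch (chr1:55363270-55363569, minus strand) 47. All 5 hold the GC box GGGCGG on one strand or the other, a sequence that transcription factor SP1 is known to bind.

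The reads over the 57 promoters were few and much alike in level across the groups. In strain C57BL/6J the median of the authors' means was 0.7 normalized reads for controls and 0.8 for DEHP, and in strain FVB/N it was 0.7 for both. Groups are listed in this order throughout (C57BL/6J control, C57BL/6J DEHP, then FVB/N control, FVB/N DEHP). The other CG-rich promoters had medians of 4.6, 4.6, 2.8 and 4.2 in the same order. Because the rule bounds these means, they describe the choice and were not tested. Of the 57 promoters, 48 had a mean above 0 in every group, 6 were listed at 0 in 1 group, 3 in 2 groups and 0 in all 4 groups. The last count was not read as a finding. By their methods the authors kept only regions with over 3 read-pairs in over 2 samples. How that filter relates to the normalized values is not given in the sources used here. Summed over the 20 libraries the normalized reads of a promoter ran from 5 to 18.5, with a median of 13.

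**Figure D1:**
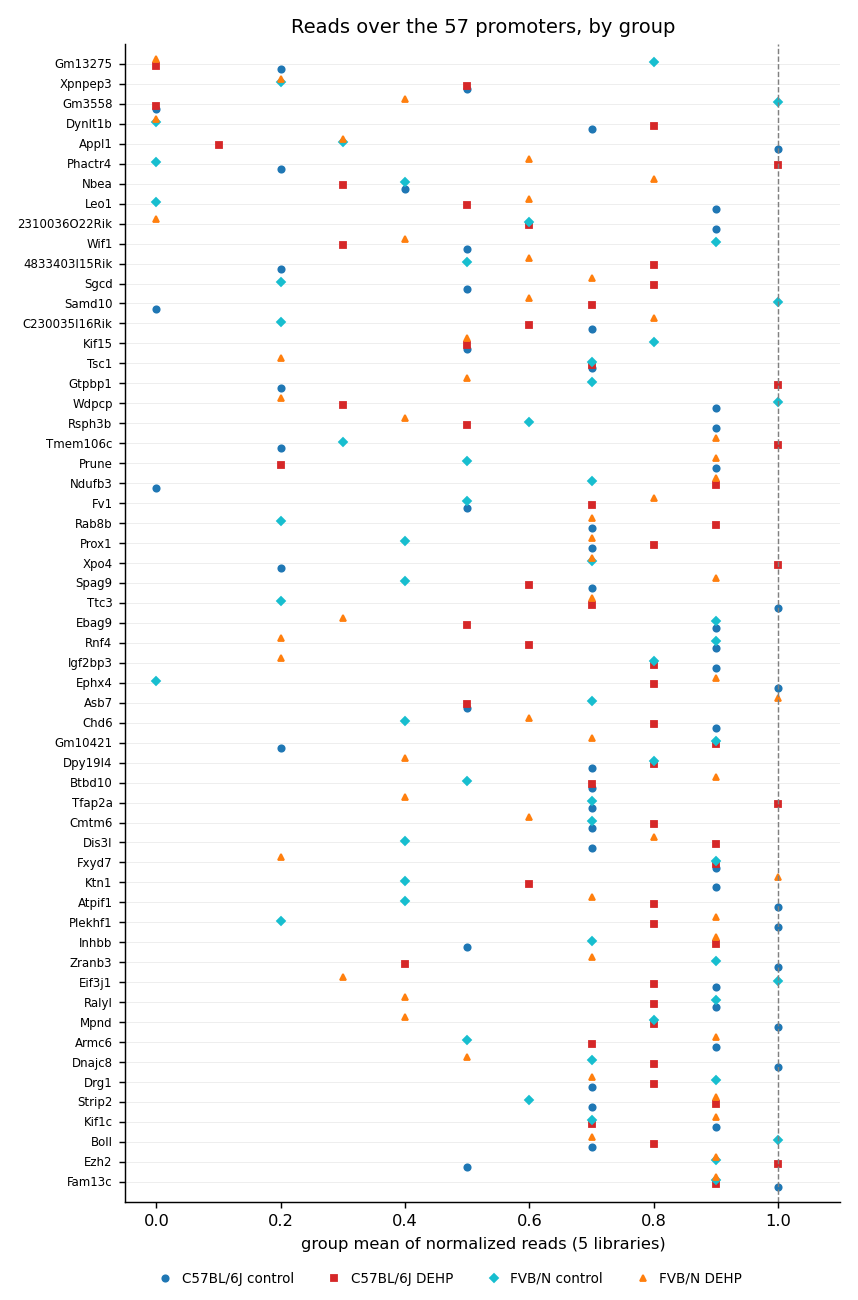
Authors' mean of normalized reads (x axis, 5 libraries a mean) of each of the 57 promoters (rows, ordered by the sum of their 4 means) in the 4 groups (symbols). The dashed line is the limit of 1 that chose the promoters, and 22 of them had a mean of 1.0 in at least 1 group.

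At this level a mean rests on few reads. The SD was at least as large as the mean in 175 of the 216 means above 0, namely 44 of 54 and 40 of 55 in control and DEHP males of C57BL/6J, and 48 of 53 and 43 of 54 in those of FVB/N. If all the reads of a group lie in 1 of its 5 libraries, the SD is 2.24 times the mean, and 44 means had such an SD within their rounding. Differences between groups within the 57 promoters were not tested, since the rule bounded the means of all 4 groups.

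Xpnpep3, which encodes a mitochondrial aminopeptidase, was the one promoter whose 4 means were all at most 0.5. Its means were 0.5 ± 1.1 in both C57BL/6J groups, 0.2 ± 0.5 in the control and 0.2 ± 0.4 in the DEHP males of FVB/N (authors' mean ± SD, n = 5 in each). Within rounding, each of these SDs is the one that 1 library with reads and 4 without would give. The region lies at chr15:81398188-81400387, holds 87 CG sites, and overlaps the start of St13 on the other strand.

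Appl1, an adaptor protein of early endosomes, had 1.0 ± 2.2, 0.1 ± 0.3, 0.3 ± 0.6 and 0.3 ± 0.5 in the same order of groups. The mean of 1.0 in C57BL/6J controls again has the SD of reads held by 1 library. Phactr4, a regulator of protein phosphatase 1 and actin, had 0.2 ± 0.5, 1.0 ± 0.8, 0.0 ± 0.0 and 0.6 ± 0.8. Its mean was higher in the DEHP group than in the control group of each strain, with SDs about as large as the means.

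Nbea encodes neurobeachin, a large protein of membrane traffic at synapses, and its 2200 bases at chr3:56183502-56185701 held 83 CG sites. The means were 0.4 ± 1.0, 0.3 ± 0.7, 0.4 ± 0.6 and 0.8 ± 1.4. Leo1, a subunit of the PAF1 complex that travels with RNA polymerase II, had 0.9 ± 1.4, 0.5 ± 1.0, 0.0 ± 0.0 and 0.6 ± 0.5. It lies at chr9:75439524-75441723, and FVB/N controls were the group without reads.

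The remaining 3 of the 8 promoters with the fewest reads stand apart in that most of their sequence is repeated elsewhere in the genome. Of 51-base sequences taken every 20 bases, only 2.78% were unique in GRCm38.p6 for Gm13275, 16.7% for Gm3558 and 47.2% for Dynlt1b, a light chain of dynein. Rsph3b, named for the radial spoke of motile cilia and chosen here for its low uniqueness, had 57.4%. The authors discarded read-pairs with several positions, so in these 4 regions few reads and few mappable reads cannot be told apart, and "unmethylated" cannot be read from them. The other 53 regions were at least 88.0% unique.

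Reads over 3 of these 4 regions were listed at 0 in both groups of a strain or of a treatment. Gm3558 was listed at 0 in both C57BL/6J groups and had 1.0 ± 1.2 and 0.4 ± 0.5 in the FVB/N control and DEHP groups. Dynlt1b had 0.7 ± 1.0 in C57BL/6J controls and 0.8 ± 1.2 in C57BL/6J DEHP and was listed at 0 in both FVB/N groups. Gm13275 was listed at 0 in both DEHP groups and had 0.2 ± 0.5 and 0.8 ± 1.7 in the controls, within rounding the SDs of 1 library with reads. These were the 3 promoters listed at 0 in 2 groups. Rsph3b had 0.9 ± 0.5, 0.5 ± 1.0, 0.6 ± 1.4 and 0.4 ± 0.5, above 0 in every group.

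The limit of 1 cuts through a continuous distribution. Among the promoters just inside it, Xpo4, a nuclear transport receptor, had means of 0.2, 1.0, 0.7 and 0.7, Zranb3, a DNA translocase of stalled replication forks, 1.0, 0.4, 0.9 and 0.7, and Ttc3, a ubiquitin ligase, 1.0, 0.7, 0.2 and 0.7. Just outside, Tubd1, which encodes delta-tubulin, had 0.7, 1.1, 0.7 and 0.4, Ldlrad4 1.1, 0.3, 0.7 and 1.1, and Gpr108 0.7, 1.1, 0.6 and 0.9. The largest mean was 1.1 in 40 further CG-rich promoters. The largest means of these 6 promoters are thus 0.1 normalized reads apart, less than any of their SDs. The choice also rests on the scale of each group: after scaling the group means to equal sums 42 promoters met the limit, and 25 of the 57 were among them.

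Promoters with all 4 means at most 1 were not spread evenly over CG content. Their share was 0.355% at 46 to 60 CG sites (11 of 3100, 95% Wilson interval 0.198% to 0.634%), 0.701% at 61 to 80 (25 of 3568, 0.475% to 1.03%) and 1.08% at 81 to 100 (21 of 1949, 0.706% to 1.64%). It went on rising outside the range of the rule, to 1.70% at 101 to 120 CG sites (15 of 882), 3.46% at 121 to 150 (19 of 549) and 3.53% above 150 (10 of 283). At the other end, 2.12% of the promoters with 1 to 10 CG sites were equally free of reads (39 of 1837), and 14 of these 39 were less than 60% unique. Shares were also small between 11 and 45 CG sites, 0.472% at 11 to 20, 0.326% at 21 to 30 and 0.332% at 31 to 45. Uniqueness bears on the low end: among promoters at least 95% unique the share was 0.939% at 1 to 10 CG sites and 0 of 1741 at 11 to 20, where all 12 promoters free of reads were under 60% unique. In the range of the rule 4 of 57 were under 60% unique, and the share among unique promoters was 0.635% (46 of 7239). The intervals cover counting error only. By the filter that the authors state, regions without reads would have been left out, so the shares hold for the promoters left in their table.

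**Figure D2:**
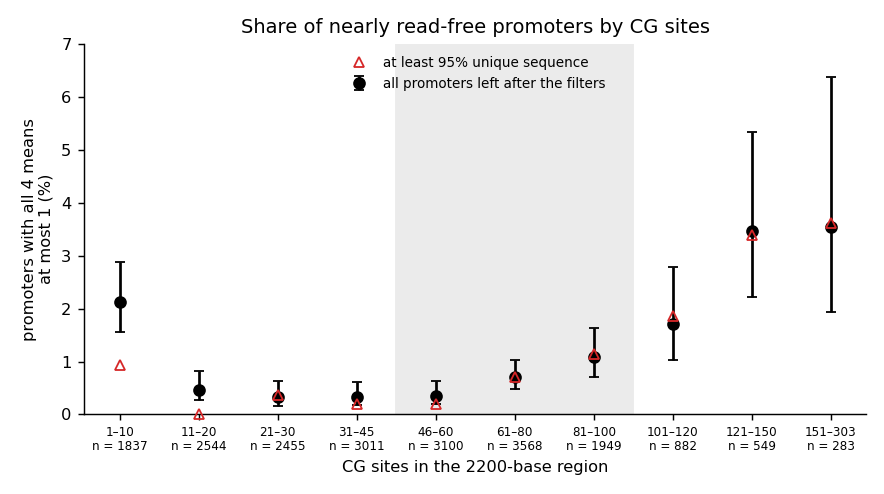
Share of promoters with all 4 group means at most 1 (y axis, %) by number of CG sites (x axis, promoters per class). Points with 95% Wilson intervals are all promoters left after the filters, triangles those with at least 95% unique sequence, and the grey band is the range of the rule. The share rises from 0.355% to 3.53% between 46 and 303 CG sites and is 2.12% at 1 to 10.

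CG sites of the 57 regions were more numerous between 800 and 200 bases upstream than in the other CG-rich promoters. The regions held 47 to 100 CG sites with a median of 74, against a median of 66. In the 100 bases before the gene start both sets had similar numbers, 9.79 CG sites a region against 9.59. Between 700 and 600 bases upstream the mean was 3.02 CG sites against 2.09, and between 600 and 500 bases 3.67 against 2.43. In the 1000 bases farthest from the start the median was 8 CG sites against 10, with quartiles of 5 and 15 against 7 and 14. The means per 100 bases there were mostly higher in the 57 regions, unlike the median. They were 1.67 against 1.36 between 1100 and 1000 bases upstream, but 1.04 against 1.14 between 1800 and 1700 bases. Within classes of equal CG sites, the median between 800 and 200 bases upstream was 14 against 11 at 46 to 60 CG sites, 19 against 16 at 61 to 80 and 28 against 26 at 81 to 100, with overlapping quartiles. From 300 bases upstream to 200 bases downstream the medians were 37 against 33, 38 against 43 and 51 against 52, so there the order was not the same in all classes.

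**Figure D3:**
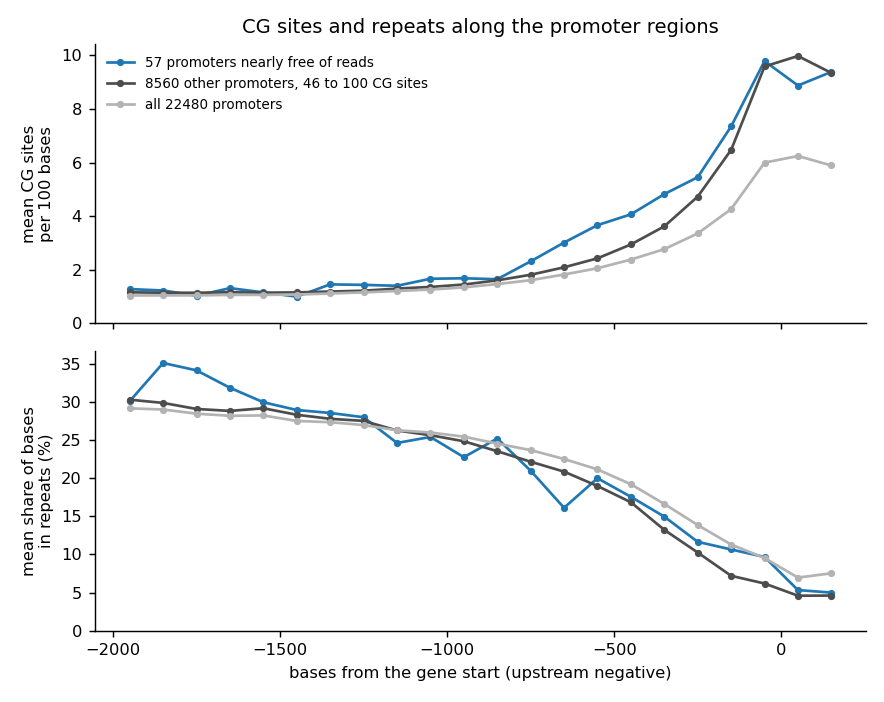
Mean CG sites per 100 bases (upper panel) and mean share of bases in annotated repeats (lower panel, %) by distance from the gene start, for the 57 promoters, the 8560 other promoters with 46 to 100 CG sites and all 22480 promoters. The upper curves part between 800 and 200 bases upstream, with 3.02 against 2.09 CG sites at 700 to 600 bases.

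The ratio of CG sites observed to those expected from the base composition had a median of 0.59 in the 57 regions and 0.49 in the other CG-rich promoters. Part of this goes with the number of CG sites, which the rule bounds, so the ratio was compared within classes. It was 0.43 against 0.42 at 46 to 60 CG sites, 0.57 against 0.51 at 61 to 80 and 0.65 against 0.60 at 81 to 100. The GC content was slightly lower in the 57 regions, with medians of 48.8% against 49.8%, and so were the values within each class, 47.4% against 48.2%, 47.9% against 49.9% and 50.8% against 52.2%. Over the last 300 bases the ratio had the opposite order, 0.84 against 0.86.

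Across all CG-rich promoters the ratio fell as reads rose, and so for the most part did the number of CG sites. The median number of CG sites was 74, 74, 71, 67, 65, 66 and 61 from the lowest to the highest class of reads. The ratio goes with this number, and the classes were not split by it, so the 2 cannot be told apart here. By the largest of the 4 means its median was 0.59 at 0 to 1, 0.55 at 1.1 to 1.5, 0.53 at 1.6 to 2, 0.51 at 2.1 to 5, 0.49 at 5.1 to 10, 0.47 at 10.1 to 20 and 0.40 above 20. CG sites in the distal 1000 bases went the other way, from medians of 8, 7, 8 and 8 in the lower 4 classes to 10, 13 and 18 in the upper 3. CG sites in the proximal 500 bases had medians of 41, 41, 41, 41, 40, 39 and 31 in the 7 classes, so the 57 regions had the same median as the classes next to them. The classes are ordered by the reads that chose the 57 promoters, and these values describe them without a test.

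**Figure D4:**
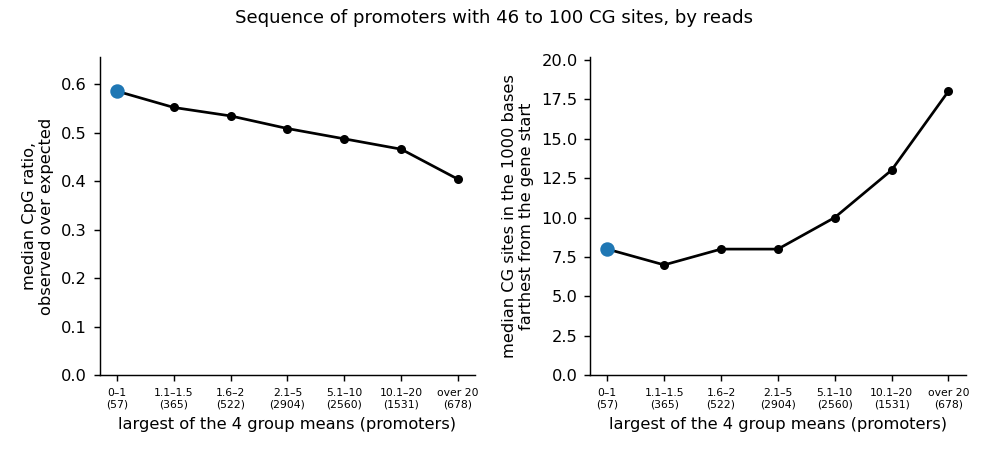
Median CpG ratio (left) and median CG sites in the 1000 bases farthest from the gene start (right) of promoters with 46 to 100 CG sites, by the largest of their 4 group means (x axis, promoters per class in parentheses). The 57 promoters are the blue points at 0.59 and 8, and the class above 20 reads stands at 0.40 and 18. Their median numbers of CG sites also differ, 74 and 61.

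Sequence motifs of CG-rich promoters were searched on both strands by their letters. In the last 300 bases the GC box (GGGCGG) was found in 75.4% of the 57 regions and 74.1% of the other CG-rich promoters. The CCAAT box (CCAAT), bound by NFY, was found in 22.8% against 30.6%. The ETS core (CCGGAAG) was found in 3 of 57, 5.26% (95% Wilson interval 1.81% to 14.4%), against 18.5%. Its share was 11.7% in promoters with over 100 CG sites and 11.2% in all promoters, both within that interval. Xpnpep3, printed above, is one of the 3 with the ETS core.

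The other motifs in these 300 bases were rare in both sets. The YY1 core (AAGATGGC) was found in 10.5% against 5.22%, the NRF1 element (GCGCATG) in 5.26% against 6.38%, and TGACGT, part of the cyclic AMP response element, in 7.02% against 11.8%. The E-box CACGTG was found in 10.5% against 9.11% and TATAAA, the TATA box, in 5.26% against 3.60%. Over the whole 2200 bases the ETS core was found in 29.8% of the 57 regions (95% Wilson interval 19.5% to 42.7%) against 32.3%. TGACGT and CACGTG can share bases where they meet, and a match of letters is no evidence of binding.

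A protein-coding gene started on the other strand within the region in 12 of the 57 promoters, 21.1% (95% Wilson interval 12.5% to 33.3%). The share was 14.5% in the other CG-rich promoters, 33.1% in promoters with over 100 CG sites and 9.40% in all promoters. In 1 case both partners were among the 57. Dnajc8, a cochaperone of the spliceosome, and Atpif1, the inhibitor of mitochondrial ATP synthase, start head to head on chromosome 4, and their regions share 2023 bases. Their means were alike, 1.0 ± 1.0, 0.8 ± 0.9, 0.7 ± 0.6 and 0.5 ± 0.5 for Dnajc8 and 1.0 ± 1.0, 0.8 ± 0.9, 0.4 ± 0.6 and 0.7 ± 0.4 for Atpif1, and count in most part the same reads.

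Genes behind the 57 promoters were mixed in function. Of 20 lists of gene families and complexes, 8 held at least 1 of the 57, and 10 of the 57 belonged to any of them. The lists were written from gene symbols and are not complete. Zranb3, Ttc3 and Rsph3b, named above with related functions, are among the genes of the 57 outside them. The lists covered 1941 CG-rich promoters, so 0.515% of their promoters were nearly free of reads, beside 0.661% of all CG-rich promoters. Chromatin enzymes held 2 of 85, Ezh2, the histone methyltransferase of Polycomb complex 2, and Chd6, a chromatin remodeller. The centrosome and cilium list held 2 of 91, the kinesins Kif15, which acts in the mitotic spindle, and Kif1c, a carrier of vesicles.

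Another 6 lists held 1 gene each. They were Ndufb3, a subunit of respiratory complex I, 1 of 63 in the respiratory chain, Eif3j1, a translation initiation factor subunit, 1 of 46, and Dnajc8, 1 of 79 chaperones. Rab8b, a small GTPase of vesicle traffic, was 1 of 186, Rnf4, a ubiquitin ligase that binds SUMO chains, 1 of 202, and Tmem106c, a transmembrane protein, 1 of 127. With 1 gene of a list at most, these counts say little on any family. The other 12 lists held 0: the mitochondrial ribosome, aminoacyl-tRNA synthetases, proteasome, splicing, RNA polymerase with Mediator, DNA replication and repair, cell cycle, mitochondrial import, kinases and phosphatases, solute carriers, G protein-coupled receptors and ion channels. A count of 0 holds for the symbols listed and not for the function, as Zranb3 at replication forks shows. RIKEN and Gm transcripts made up 6 of the 57, among them 2310036O22Rik, C230035I16Rik and Gm10421, of 531 CG-rich promoters of that kind.

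Ezh2 and Ndufb3 show how the reads of such genes lay. Ezh2 had 0.5 ± 0.6, 1.0 ± 1.1, 0.9 ± 1.0 and 0.9 ± 1.0 normalized reads in the order of groups given above, at 59 CG sites. Ndufb3 had 0.0 ± 0.0 in C57BL/6J controls, then 0.9 ± 0.8, 0.7 ± 0.6 and 0.9 ± 0.6 in the other 3 groups, at 76 CG sites. Strip2, a scaffold subunit of a phosphatase complex, had 0.7 ± 1.1, 0.9 ± 0.6, 0.6 ± 1.4 and 0.9 ± 0.1. The SD of 0.1 in FVB/N DEHP is small beside its mean, so there the few reads were spread evenly over the 5 libraries.

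Genes marked for reproduction made up small shares of the 57 promoters, near those elsewhere. Spermatogenesis marked 1 of 57, 1.75% (95% Wilson interval 0.310% to 9.29%), against 2.24% of the other CG-rich promoters. Reproduction marked 2, 3.51% against 4.80%, and reproductive process 2, 3.51% against 5.75%, in both cases Boll and Inhbb. Sperm part marked 0 of 57, which allows a share of up to 5.26%, against 0.584%. The sperm proteome held 1 of 57, Rab8b, 1.75% (0.310% to 9.29%), against 4.94%. The share of the other CG-rich promoters lay within the interval of the 57 for each of these marks.

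Boll encodes an RNA-binding protein of the DAZ family that male germ cells need after meiosis, and its region at chr1:55363270-55365469 held 84 CG sites, 67 of them in the last 500 bases. Its means were 0.7 ± 0.7, 0.8 ± 0.6, 1.0 ± 1.0 and 0.7 ± 1.2. Its expression was 9.14 in spermatocytes and 8.24 in spermatids, beside 5.36 in spermatogonia and 4.25 in Sertoli cells. Rab8b had 0.7 ± 1.6, 0.9 ± 1.1, 0.2 ± 0.5 and 0.7 ± 0.7 normalized reads and expression between 5.89 and 6.71 in all 6 columns.

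At least 1 variant between C57BL/6J and FVB/N lay in the promoter of 27 of the 57, 47.4% against 46.5% of the other CG-rich promoters. A functional variant lay in the gene in 16, 28.1% against 26.0%. Plekhf1, an endosomal protein, had the most promoter variants, 27, and Nbea had 18. The normalized reads of Plekhf1 were 1.0 ± 0.5, 0.8 ± 0.6, 0.2 ± 0.4 and 0.9 ± 1.0, so FVB/N controls were the lowest group, a difference that was not tested.

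Expression in germ cells was measured independently of these sperm. The authors copied it from a microarray study of C57BL/6J testis cells, namely spermatogonia of 4 to 8 days, Sertoli cells of 14 to 16 days, and spermatocytes, spermatids, seminiferous tubules and total testis of 8 to 9 weeks. The scale is not stated, and 1 value a gene was deposited without error. Values existed for 52 of the 57 genes and were missing for Eif3j1, Rsph3b, Dynlt1b, Gm13275 and Gm3558. Genes are not replicates, so medians and quartiles are given without a test.

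The 52 genes had lower medians than the other CG-rich genes in all 6 columns, and their ranges largely overlapped. The medians were 6.03 against 6.63 in spermatogonia, 6.12 against 6.30 in spermatocytes, 5.79 against 6.08 in spermatids and 5.96 against 6.51 in Sertoli cells. They were 5.93 against 6.38 in seminiferous tubules and 5.86 against 6.38 in total testis. The lower quartile of the 52 genes was 4.81 in spermatogonia and the upper 7.93, against 5.33 and 8.09. All 6 medians were above those of all genes in the table, which were 5.80, 5.67, 5.68, 5.71, 5.82 and 5.82. The CG-rich promoters next in reads had a largest mean of 1.1 to 1.5. Their medians, in the same order of columns, were 6.55, 6.03, 5.69, 6.51, 6.12 and 5.99. These were lower than in the 52 genes in spermatocytes and spermatids, and higher in the other columns.

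**Figure D5:**
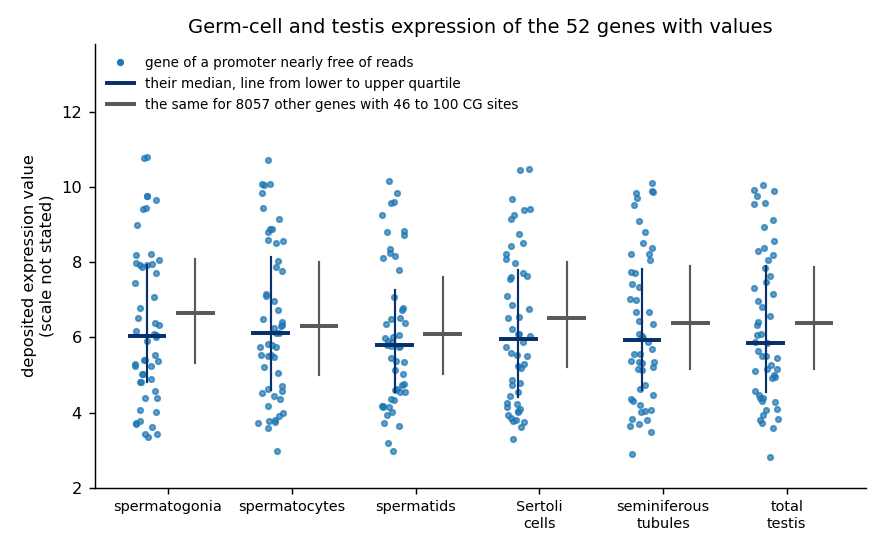
Deposited expression values (y axis, scale not stated) of the 52 genes in 6 columns (points), with their median and quartiles (blue) and those of 8057 other genes with 46 to 100 CG sites (grey). The blue medians lie below the grey ones in all 6 columns, by 0.18 in spermatocytes to 0.61 in spermatogonia, and the quartile lines overlap.

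Few reads over the promoter went with high as well as with low expression. Genes low in all 6 columns made up a larger share than among the other CG-rich genes, a difference that was not tested. Of the 52 genes, 22 (42.3%) lay above the median of all genes in all 6 columns, as did 42.7% of the other CG-rich genes. A further 17 (32.7%) lay below it in all 6 columns, against 18.4%. Among the latter, named here after their values were seen, were Wif1, a secreted inhibitor of Wnt signals, with 2.83 in total testis, Sgcd, a sarcoglycan of muscle, with 3.71, and Tfap2a, a transcription factor of neural crest and skin, with 4.38. The rule bounds their reads as it does those of all 57, so their few reads are no result about expression. Wif1 had means of 0.5, 0.3, 0.9 and 0.4 in the order of groups, and Sgcd 0.5, 0.8, 0.2 and 0.7. Tfap2a had 0.7, 1.0, 0.7 and 0.4.

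Of the 4 isolated cell types, spermatocytes gave the highest value in 18 of the 52 genes, 34.6% (95% Wilson interval 23.2% to 48.2%), against 25.3% of the other CG-rich genes. Sertoli cells did so in 13 (25.0% against 25.8%), spermatogonia in 11 (21.2% against 26.7%) and spermatids in 10 (19.2% against 22.3%). All 4 shares of the other genes lay within the intervals of the 52. The difference between the highest and the lowest cell type had a median of 1.37 in the 52 genes and 1.56 in the others.

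Spermatocytes stood out most in Fam13c, Dis3l and Tmem106c. Dis3l, an exonuclease of the cytoplasmic exosome, had the highest value of the 52 genes there, 10.7, with 9.58 in spermatids, 5.02 in spermatogonia and 5.52 in Sertoli cells. Tmem106c had 8.80 in spermatocytes and 6.07 in spermatids, and Fam13c had 5.54 and 4.15. The Dis3l promoter had 0.7 ± 1.1, 0.9 ± 0.9, 0.4 ± 0.6 and 0.8 ± 1.3 normalized reads, and Tmem106c 0.2 ± 0.5, 1.0 ± 0.8, 0.3 ± 0.6 and 0.9 ± 0.7. In both strains the Tmem106c mean was higher in the DEHP group by about the size of the SDs. The reverse order held in both strains for Rnf4, with 0.9 ± 0.9, 0.6 ± 1.3, 0.9 ± 1.3 and 0.2 ± 0.4. Neither was tested, and directions were not counted over the 57 promoters, since the rule bounds their means in all 4 groups. Fam13c, with 1.0 ± 1.6, 0.9 ± 0.7, 0.9 ± 1.2 and 0.9 ± 0.7, had the largest sum of means of the 57, 3.7.

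Spermatids stood out most in Ephx4, an epoxide hydrolase family member with 6.37 against 4.51 in spermatocytes and 3.42 in spermatogonia, and in Prox1, a transcription factor of lymphatic vessels with 4.63 against 3.58 and 3.34. Samd10 had 8.80 in spermatids, 8.88 in spermatocytes, 6.34 in spermatogonia and 6.10 in Sertoli cells. Prox1 stayed low in every column, below the lower quartile of 5.01 of the other CG-rich genes in spermatids. In seminiferous tubules and total testis the same 3 genes, Ephx4, Fam13c and Prox1, stood out most from their other columns, by 0.42 to 0.85.

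Mpnd, which encodes a protein with an MPN domain, was among the 3 genes that stood out most both in spermatogonia and in Sertoli cells, with 9.42 and 9.26 beside 6.48 in spermatocytes. Inhbb, the beta B subunit of inhibin and activin, had 9.43 in spermatogonia, 9.38 in Sertoli cells and 5.77 in spermatids, and Dpy19l4 7.45, 7.62 and 3.20. Strip2 had 7.54 in Sertoli cells and 4.81 in spermatogonia, and Plekhf1 9.15 and 7.95. The spermatogonia column also carried Sertoli markers. Amh had 9.00 there and 6.30 in Sertoli cells, Wt1 9.35 and 10.4, and Sox9 6.75 and 8.03, while the spermatogonial marker Stra8 had 9.95 and 5.14. The part of Sertoli RNA in the spermatogonial values of Mpnd, Inhbb and Dpy19l4 was not tested.

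The other columns carried their own markers and those of neighbouring stages. Spo11, the enzyme that cuts DNA in meiosis, had 10.7 in spermatocytes and 4.34 in spermatogonia, and Prm1 and Prm2, the protamines that pack sperm DNA, had 13.7 and 14.3 in spermatids and 3.97 and 4.99 in spermatogonia. Spermatocytes also had 12.5 and 12.6 for Prm1 and Prm2, and spermatids 9.11 for Spo11 and 12.7 for Hspa2, a chaperone of spermatocytes. Inhbb had 0.5 ± 0.7, 0.9 ± 1.0, 0.7 ± 0.6 and 0.9 ± 0.7 normalized reads and Mpnd 1.0 ± 1.3, 0.8 ± 0.6, 0.8 ± 1.3 and 0.4 ± 0.8.

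Promoters of germline genes that are methylated in somatic tissues are known to be free of methylation in sperm, and 0 of 16 with 46 to 100 CG sites were among the 57, a count near the 0.661% of all CG-rich promoters. Their largest group mean had a median of 9.05 normalized reads, against 5.7 in the other CG-rich promoters. Dazl, a germ cell RNA-binding protein of the family of Boll, had 91 CG sites and means of 7.5, 3.8, 10.6 and 2.8 in the order of groups. Boll, with 84 CG sites, had at most 1.0. Of these germline promoters Tex11 had the lowest largest mean, 3.3, and it lies outside the chromosomes of the rule. Maternally methylated imprints are also unmethylated in sperm. Promoter regions of genes with such imprints had largest means from 1.9 (Snurf, 22 CG sites) to 26.5 (Nnat, 69 CG sites). The promoter regions of 5 paternally methylated loci ran from 2.4 (Igf2) to 25.8 (Meg3), with H19 at 25.3. Whether the regions of either imprint list hold the methylated stretch of each locus was not checked, and not all lie within the CG range of the rule. The authors' methods state that sperm were examined by microscopy and that preparations with somatic cells were not kept.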

How the data were processed

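Sperm DNA of 20 males was sequenced after MethylCap enrichment. The authors mapped the pairs to mm10 (Bowtie 0.12.7), removed pairs with several positions, non-concordant pairs and pairs without CpG, counted the pairs over regions from 2000 bases upstream to 200 downstream of each gene start, and normalized them with edgeR. By their methods a region needed over 3 read-pairs in over 2 samples, yet some regions sum to 5 or fewer normalized reads over the 20 libraries, and how the filter relates to these values is not given in the sources used here. The deposited signal values are means of normalized reads with their SDs per group with 1 decimal, so the tests planned for single libraries were not run, and no test was made from the means and SDs because the rule had used the means. The deposited expression score comes from an independent microarray study and its scale is not stated. Numbers of CG sites and of variants, gene ontology, imprinting and proteome marks are the authors' annotation. Columns with the authors' fold changes, p-values and FDR were not used.

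The rule was applied to the deposited table, and members, gene lists and motifs were chosen with earlier results of these data known. Genes were named by the smallest sum of means, the largest value in an expression column less the median of the others, the spermatogenesis and proteome marks, the lists, and closeness to the limit. Genes outside this rule are said to be so or stand as partners of a named gene. Sequences, CG sites, repeats, motifs and unique 51-base sequences (every 20 bases) were read from GRCm38.p6 by the deposited coordinates, and CG numbers were equal to the deposited ones in 93.2% of all promoters and in 48 of the 57, the other 9 differing by 1. Exons came from the GENCODE annotation of that assembly, where 52 of the 57 regions overlapped an exon of a gene of the same symbol. Functions were tested on simulated sequences. Shares have 95% Wilson intervals, and a count of 0 allows up to 3 counts. Python 3.11.15, numpy 2.4.6, pandas 2.3.3, scipy 1.17.1, numba 0.67.0 and matplotlib 3.10.9 were used. Alternatives changed the limit on the means, the scaling, the CG count, the promoters compared, the uniqueness and the window.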

Additional observations from a re-analysis of the deposited data

How the results depend on the processing

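The number of promoters depended on the limit. At 0.5 normalized reads 1 was left and at 2 there were 944. Scaling the group means to equal sums gave 42 promoters, 25 of them among the 57, and scaling to equal medians, chosen after seeing the data, gave 32, of which 27 were. CG sites counted in the genome gave the same 57, and without the 4 regions under 60% unique, also chosen after seeing the data, there were 53. A mean of at most 0.1 counted as 0 still left 0 promoters at 0 in all groups, a count that the authors' filter on read-pairs may bear on. The cause of these changes was the limit or scale itself.

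At 0.5 normalized reads the single promoter, Xpnpep3, gave differences in annotation shares from the other CG-rich promoters of -2.24 percentage points for spermatogenesis, -4.79 for reproduction, -5.73 for reproductive process, -4.92 for the sperm proteome, 53.5 for promoter variants, 74.0 for functional variants and 85.5 for a gene on the other strand, and 0 functional lists in place of 8. Against promoters with over 100 CG sites the share with a gene on the other strand was lower by 12.1 points (-12.1) and not higher. The difference for sperm part was -0.611 points against all other promoters and -0.622 without RIKEN and Gm symbols, beside -0.584. In the last 300 bases the difference in CpG ratio was -0.0195 in place of 0.0944, and the ETS core differed by -13.3 points in place of -2.45. Expression medians were below those of promoters with over 100 CG sites in all 6 columns, and above those of all other promoters, by 0.04 in total testis to 0.45 in spermatocytes. Of 105 values under an alternative, 89 stayed within the yardstick of their result. It was 1.5 times for counts, the 95% interval for shares and the SD over genes for medians. For expression that SD was 1.91 to 2.08 in the 52 genes, beside main differences of -0.608 to -0.181. No expression alternative fell outside that SD, even with the sign reversed (0.224 in spermatogonia against all other promoters) or 1 gene left (-2.05 there). The yardstick for counts ignored membership: equal sums gave 42 promoters, of which 25 were shared with the rule. The 89 values thus say little on whether the expression differences or the membership are stable.

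No paired analysis was possible because the values used are group means, and leaving out single libraries was not run for the same reason. Means of 0 to 1 normalized reads rest on few reads, and no lower level of methylation can be told from them.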
